A study of Mus musculus with 23 samples.

Results

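T cells carry receptors that restrain them once they have been activated, and these inhibitory or checkpoint receptors are the targets of several cancer immunotherapies. The 8 genes described here were the receptor genes Pdcd1 (PD-1), Lag3, Havcr2 (TIM-3), Tigit, Btla and Cd160, the gene of the nuclear factor Tox, and Entpd1, which encodes the surface enzyme CD39. They were selected by gene symbol among 19505 genes measured on microarrays of mouse breast tumors. All 8 were found, each by a single probe set, and each was followed across the groups of mice and against Cd3e, a chain of the T cell receptor complex that marks T cells in general.

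The tumors had been raised from E0771 cells, a triple-negative mouse mammary cancer line, in a fat pad of C57BL/6NCrl mice and were excised when the study ended, with 1 array for each of 23 tumors. CON-LFD mice (n = 6) ate the control low-fat diet throughout and were never obese, and had sham surgery. DIO-HFD mice (n = 6) were made obese on a diet with 60% fat, had sham surgery and stayed on that diet. DIO-LFD mice (n = 5) were made obese in the same way, had sham surgery and were moved to low-fat food. DIO-VSG mice (n = 6) were obese mice given a vertical sleeve gastrectomy, in which most of the stomach is removed, and then low-fat food, so surgery and diet cannot be told apart in that group. All mice received the tumor cells 22 weeks after the diets were first assigned, and all tumors came from the same cell line. The source name gives another group than the title for DIO-LFD replicate 1 (obese without weight loss) and DIO-VSG replicate 1 (low-fat diet), and the groups of the titles were used.

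Engagement of PD-1, BTLA and TIGIT by ligands on tumor or myeloid cells brings phosphatases or competing signals to the T cell receptor and dampens activation. LAG-3 binds MHC class II, TIM-3 binds several ligands including galectin-9, and CD160 shares the ligand HVEM, the product of Tnfrsf14, with BTLA. TOX is a DNA-binding factor that installs and maintains the exhausted state of T cells under lasting antigen exposure, and CD39 breaks down extracellular ATP on the way to adenosine. None of the genes is restricted to T cells. TIM-3 and CD39 are abundant on macrophages and dendritic cells, CD160 and TIGIT are also found on natural killer cells, and BTLA is found on B cells.

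Values are log2 signals, on which a difference of 1 is a 2-fold change, and levels were compared between groups for each gene and not between genes. Below 4.77, the 40th percentile of all probe set means, a signal was counted as low. Havcr2, Tigit, Tox, Entpd1 and Cd3e were above this limit on all 23 arrays. Pdcd1 was below it on 3 arrays, Btla on 4, Lag3 on 5 and Cd160 on 15, so that most Cd160 values lay in the range where signals are least certain. The T cell receptor chain Cd3e and the leukocyte antigen Ptprc (CD45) were above the limit on every array and Cd8a and Cd3g were below it on 2 each, while the B cell gene Ms4a1 (CD20) was below it on all 23. The mean of 25 skeletal muscle genes ranged from 5.14 to 14.78 between arrays, and 8 arrays from all 4 groups exceeded 9 and are called muscle-rich.

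Promoter windows from RefSeq (GRCm38.p6, 250 bases before to 50 after the transcription start) were found for 6 of the 8 genes. Those of Pdcd1 and Havcr2, which followed Cd3e from tumor to tumor, and those of Tigit and Btla, which did not pass that test, are shown so that they can be set side by side. Capitals mark matches, on either strand, to 6 motifs that were searched: NFAT (TGGAAA), AP-1 (TGANTCA), the Nr4a element NBRE (AAGGTCA), RUNX (TGTGGT), the STAT element GAS (TTCNNNGAA) and the GC box (GGGCGG), where N is any base.
Pdcd1, chr1:94052504-94052803, minus strand: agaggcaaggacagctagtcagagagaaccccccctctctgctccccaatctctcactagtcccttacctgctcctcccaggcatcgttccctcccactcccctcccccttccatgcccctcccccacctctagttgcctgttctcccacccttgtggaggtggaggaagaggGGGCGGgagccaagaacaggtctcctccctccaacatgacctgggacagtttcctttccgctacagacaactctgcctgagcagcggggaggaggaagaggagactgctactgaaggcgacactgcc
Havcr2, chr11:46454681-46454980, plus strand: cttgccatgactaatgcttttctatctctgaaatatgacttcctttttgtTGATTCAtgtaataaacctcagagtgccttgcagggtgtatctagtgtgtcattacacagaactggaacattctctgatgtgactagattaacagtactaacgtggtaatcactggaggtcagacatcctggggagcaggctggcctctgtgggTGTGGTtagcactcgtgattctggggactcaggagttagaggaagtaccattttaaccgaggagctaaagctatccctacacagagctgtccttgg
Tigit, chr16:43664135-43664434, minus strand: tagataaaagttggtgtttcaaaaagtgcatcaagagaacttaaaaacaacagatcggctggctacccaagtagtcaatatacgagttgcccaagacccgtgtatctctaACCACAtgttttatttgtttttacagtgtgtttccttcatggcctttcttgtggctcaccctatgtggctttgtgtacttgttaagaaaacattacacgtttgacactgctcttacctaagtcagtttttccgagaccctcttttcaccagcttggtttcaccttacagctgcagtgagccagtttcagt
Btla, chr16:45224087-45224386, plus strand: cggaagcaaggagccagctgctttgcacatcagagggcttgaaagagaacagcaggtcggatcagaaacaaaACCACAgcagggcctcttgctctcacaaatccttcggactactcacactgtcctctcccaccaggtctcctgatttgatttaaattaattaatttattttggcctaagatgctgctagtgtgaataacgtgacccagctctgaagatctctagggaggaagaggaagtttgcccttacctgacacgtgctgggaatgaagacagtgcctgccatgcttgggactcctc
The Pdcd1 window held 1 GC box, found in 35.7% of all 32851 windows, and none of the other 5 motifs. The Havcr2 window held an AP-1 match (7.81% of all windows) at position -200 from the start and a RUNX match (16.8%) at position -46. Tigit and Btla each held 1 RUNX match, both on the strand opposite to the gene. NFAT matches occurred in 21.4% of all windows, NBRE matches in 4.72% and GAS matches in 8.3%, and none of the 4 windows shown held one. The matches are descriptions of these letters and were not tested for binding.

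The comparison of DIO-HFD with CON-LFD addresses how obesity under a high-fat diet relates to the tumor. Of the 8 genes, 7 had lower mean signals in tumors of obese mice and Btla did not, with a median difference of -0.99 over the 8 genes beside 0.03 over all 19505 genes. At an unadjusted p below 0.05 in limma, 7 of 8 were lower, against 5.89% of all genes. After Benjamini-Hochberg adjustment over all genes none of the 8 passed 0.05 (adjusted p from 0.10 to 0.90), and 0.00513% of all genes, which is 1 gene, did. In a piece of tumor, fewer T cells and less of the transcript in each T cell cannot be told apart.

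Pdcd1 was 7.29 ± 0.95 (SD, n = 6) in CON-LFD, with a lowest value of 6.25, a median of 7.20 and a highest of 8.81. In DIO-HFD it was 5.27 ± 0.91, with 4.21, 4.99 and 6.61. DIO-HFD replicate 4, at 6.61, lay within the CON-LFD range and the other 5 arrays lay below it. The difference was -2.01 ± 0.60 (SE, 4.04-fold lower, unadjusted p = 0.0029, adjusted p = 0.15 in limma). Replicates 1 and 3 of DIO-HFD (4.71 and 4.21) lay below the low-signal limit.

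Tox had the smallest p of the 8 and was alone among them in that its arrays were fully separated between DIO-HFD and CON-LFD, as were, in the lower direction, those of 0.584% of all genes. It ran from 7.34 through a median of 7.69 to 8.31 in CON-LFD and from 5.58 through 5.79 to 6.92 in DIO-HFD. All 6 DIO-HFD tumors therefore lay below all 6 CON-LFD tumors. The difference was -1.74 ± 0.45 (3.34-fold lower, unadjusted p = 0.0008, adjusted p = 0.10). Fitted on the arrays of these groups alone, Tox passed the threshold (adjusted p = 0.040 in limma), as 1 of 5 genes called in that fit. It passed in 2 of 35 alternatives, the other being the groups of the source names.

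Lag3 was 6.25 ± 0.47 in CON-LFD (5.51 to 6.90, median 6.27) and 4.75 ± 0.66 in DIO-HFD (4.15 to 5.91, median 4.64), and DIO-HFD replicate 4 was the array that reached into the CON-LFD range. The difference was -1.49 ± 0.45 (2.82-fold lower, unadjusted p = 0.0029, adjusted p = 0.15). The DIO-HFD mean of Lag3 and replicates 1, 3 and 5 of that group (4.24, 4.15 and 4.39) lay below the low-signal limit of 4.77. The size of this difference is therefore less certain. Tigit was 7.34 ± 0.31 (6.98 to 7.92, median 7.29) in CON-LFD and 6.43 ± 0.62 (5.60 to 7.19, median 6.35) in DIO-HFD, a difference of -0.91 ± 0.27 (1.88-fold lower, unadjusted p = 0.0026, adjusted p = 0.14). DIO-HFD replicates 2 and 4 lay within the CON-LFD range of Tigit.

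Havcr2 was 10.54 ± 0.47 (9.78 to 11.02, median 10.64) in CON-LFD and 9.46 ± 0.81 (8.54 to 10.35, median 9.54) in DIO-HFD. Of the DIO-HFD arrays, 3 lay below every CON-LFD array and 3 among them. The difference was -1.08 ± 0.37 (2.11-fold lower, unadjusted p = 0.0084, adjusted p = 0.20). Entpd1 was 12.79 ± 0.44 (12.18 to 13.49, median 12.83) in CON-LFD and 12.11 ± 0.75 (11.29 to 13.08, median 11.93) in DIO-HFD, a difference of -0.68 ± 0.32 (1.60-fold lower, unadjusted p = 0.047, adjusted p = 0.36).

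Cd160 was 5.32 ± 0.77 (4.29 to 6.21, median 5.30) in CON-LFD and 4.43 ± 1.00 (2.85 to 5.60, median 4.40) in DIO-HFD. The groups overlapped over much of their range, and the lowest DIO-HFD value was that of replicate 3. The difference of -0.89 ± 0.37 (1.85-fold lower, unadjusted p = 0.025, adjusted p = 0.29) shrank to -0.57 without that array. Btla, at 5.34 ± 0.89 (4.45 to 6.73, median 5.09) and 5.50 ± 0.62 (4.60 to 6.28, median 5.45), had a difference of 0.16 ± 0.37, with a 95% confidence interval of -0.62 to 0.94 (adjusted p = 0.90). The sign of the Btla difference turned when CON-LFD replicate 1 was left out (-0.02).

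**Figure D1:**
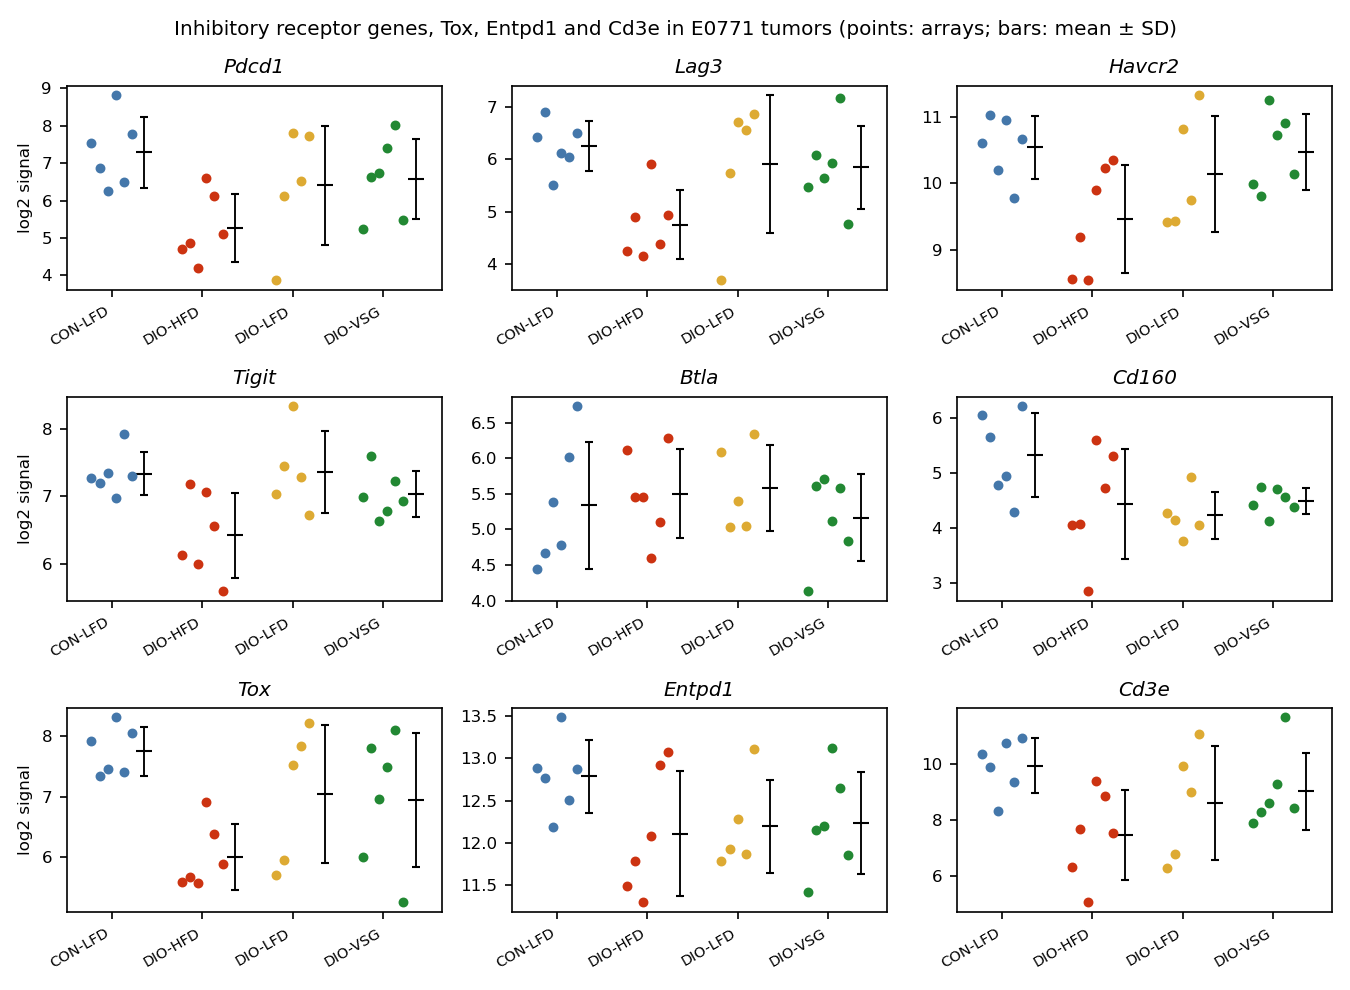
Log2 signal of the 8 genes and of Cd3e in each of the 23 tumors, in the 4 groups (points, arrays; bars, mean ± SD; each panel has its own axis). DIO-HFD values of Tox, from 5.58 to 6.92, lie below all CON-LFD values, while Btla values of all groups overlap.

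Cd3e itself was 9.94 ± 0.98 (8.33 to 10.93, median 10.13) in CON-LFD and 7.49 ± 1.60 (5.08 to 9.41, median 7.62) in DIO-HFD, and replicates 4 and 5 of DIO-HFD lay within the CON-LFD range. Its difference of -2.45 ± 0.80 (5.47-fold lower, unadjusted p = 0.0054, adjusted p = 0.17) was further from 0 than that of any of the 8 genes. Of 11 T cell core genes, namely chains and coreceptors of the T cell receptor complex (Cd3d, Cd3e, Cd3g, Cd247, Cd4, Cd8a and Cd8b1) and the T cell genes Cd6, Thy1, Trat1 and Skap1, all 11 had a lower mean in DIO-HFD, 10 of them with an unadjusted p below 0.05, and their median difference was -1.56. On average 2 of these 11 genes were below the low-signal limit. Cd8a, the coreceptor of cytotoxic T cells, had a difference of -3.01 ± 0.76 (8.04-fold lower, adjusted p = 0.097). The part of T cell number in the lower receptor signals was not tested by these arrays.

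Markers of other cell types that carry these receptors also differed between DIO-HFD and CON-LFD. Of 8 natural killer cell genes all 8 were lower and 5 had an unadjusted p below 0.05 (median -1.22), and the mean log2 signal of the list ran from 6.96 to 8.43 in CON-LFD and from 5.78 to 7.66 in DIO-HFD. The defining markers Ncr1 (-0.68, unadjusted p = 0.14 in limma) and Klrb1c (-0.92, unadjusted p = 0.074) were not among the 5. Of 10 macrophage genes 9 were lower and 7 had an unadjusted p below 0.05 (median -0.79), with list means from 12.21 to 13.04 and from 10.92 to 12.43. Of 11 dendritic cell genes 10 were lower and 4 passed that level (median -0.49), although 5 of the 11 were below the low-signal limit on average, with Zbtb46 below it on all 23 arrays and Flt3 on 20. Of 10 B cell genes, 8 were lower, 1 at that level (median -0.30), with 6 of the 10 below the limit on average and Ms4a1 below it throughout. The B cell marker Cd79a differed by 0.03 and was below the limit on 11 arrays. The part of these cell types in the receptor signals was not tested.

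The remaining lists were less uniform. Of 9 measured genes of regulatory T cells, which carry TIGIT, LAG-3 and CD39, 7 were lower and 4 at an unadjusted p below 0.05 (median -0.34), among them Ccr8, with the smallest p of the list, at -1.40 ± 0.41 (adjusted p = 0.13). Foxp3, the defining marker of these cells, was not among the measured genes. Il2ra (-0.13) and Ikzf2 (0.12) of the list differed by less than their standard errors. Of 7 neutrophil genes 5 were higher (median 0.70), with 1 higher and 1 lower at an unadjusted p below 0.05. The lower one, Csf3r, had the smallest p of that list, at -1.29 ± 0.42 (unadjusted p = 0.0059 in limma). The higher one was Cxcr2, at 0.71 ± 0.30 (unadjusted p = 0.030). Of 9 endothelial genes 5 were higher (median 0.04), and of 10 adipocyte genes 7 were higher (median 0.27). Of 7 genes of lymph node stroma 4 were higher (median 0.09). Of 12 genes of normal mammary epithelium 7 were lower (median -0.05), with 10 of the 12 below the low-signal limit on average. All 25 muscle genes had lower means in DIO-HFD (median -1.56, none at an unadjusted p below 0.05), with list means from 5.18 to 14.78 in CON-LFD and from 5.31 to 9.85 in DIO-HFD. Without the 8 muscle-rich arrays, whose limit was set with earlier results of these data known, the median difference of the receptor and factor genes was -1.19, and that of Pdcd1 was -2.36.

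Genes of the ligands were split in direction. Of 12 ligand or partner genes, 7 were lower and 5 higher in DIO-HFD (median -0.18), 3 of them lower and 2 higher at an unadjusted p below 0.05. Pdcd1lg2, which encodes the PD-1 ligand PD-L2, was lower by a difference of -2.18 ± 0.72 (adjusted p = 0.18), Cd274 (PD-L1) by -0.87 ± 0.31 (adjusted p = 0.21) and Tnfrsf14 (HVEM) by -0.81 ± 0.30 (adjusted p = 0.22). Lgals3, which encodes galectin-3, had a higher signal in DIO-HFD, with a difference of 0.56 ± 0.20 (adjusted p = 0.21).

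Other receptors of the same class resembled the 8 genes in direction. Of 10 further inhibitory receptors, 9 had lower means in DIO-HFD and 7 an unadjusted p below 0.05 (median -0.99). Among these, Klrc1 (NKG2A) differed by -2.03 ± 0.54, Cd96 by -1.47 ± 0.39, Tnfrsf21 by -1.42 ± 0.35 and the collagen receptor Lair1 by -1.11 ± 0.35 (adjusted p from 0.093 to 0.16). Of 8 costimulatory receptors, which act in the opposite sense, 7 were lower and 5 had an unadjusted p below 0.05 (median -0.96), among them Tnfrsf18 (GITR) at -1.66 ± 0.62, Cd226, the activating competitor of TIGIT, at -1.54 ± 0.58, Tnfrsf4 (OX40) at -1.50 ± 0.57 and Cd28 at -0.82 ± 0.34 (adjusted p from 0.23 to 0.29).

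Upstream and downstream genes were examined in the same way. Of 14 transcription factors of activated or exhausted T cells, 11 were lower and 7 of them at an unadjusted p below 0.05 (median -0.48), with the smallest p for Nfatc2, a calcium-responsive factor of T cell activation, at -1.36 ± 0.28 (2.57-fold lower, adjusted p = 0.077). Nr4a3 was at -1.27 ± 0.45, Batf at -0.97 ± 0.35 and Ikzf3 at -0.78 ± 0.30 (adjusted p from 0.21 to 0.25). On average 3 of the 14 factors were below the low-signal limit. Of 9 signaling genes, 8 were lower and 6 at an unadjusted p below 0.05 (median -1.02), including Ptpn6, which encodes the phosphatase SHP-1, at -1.53 ± 0.47 and Prkcq at -1.57 ± 0.40 (adjusted p = 0.15 and 0.10).

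The partners of Entpd1 were split in direction. Of 6 adenosine pathway genes, 4 were lower and 2 higher (median -0.24). Entpd2, a related ectonucleotidase, had a higher signal in DIO-HFD (difference 1.09 ± 0.38, adjusted p = 0.20), as had Nt5e, which encodes CD73, the enzyme that completes the step to adenosine (0.99 ± 0.48, adjusted p = 0.37). Of 15 interferon gamma response genes, 14 were lower and 13 at an unadjusted p below 0.05 (median -0.95), and of 10 cytotoxic effector genes all 10 were lower and 4 at that level (median -1.0). Nkg7 differed by -2.46 ± 0.64, Gzmb by -1.34 ± 0.50 and Ifng by -1.77 ± 0.70 (adjusted p from 0.10 to 0.27). On average 2 of the 10 effector genes were below the low-signal limit.

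The comparison of DIO-VSG with DIO-HFD addresses weight loss by surgery and diet. It shares its DIO-HFD arrays with the comparison above, so the comparisons are not independent. Of the 8 genes, 7 had higher means in DIO-VSG (median 0.77 beside -0.01 over all genes), and 4 of 8 had an unadjusted p below 0.05 in the higher direction, against 2.92% of all genes. None passed after adjustment (adjusted p from 0.86 to 1.00), nor did any other gene (0% of all genes called by limma, with 1089 genes at an unadjusted p below 0.05). No gene of the 8 was without overlap between the groups, against 0.113% of all genes in the higher direction. The 4 genes were reduced to 1 without DIO-HFD replicate 3, without DIO-VSG replicate 5 or without the 8 muscle-rich arrays, and to 2 without DIO-HFD replicate 1, DIO-HFD replicate 6 or DIO-VSG replicate 2. For these fits the share of all genes is not given, so the lower counts cannot be set against that of other genes.

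Havcr2 was 10.47 ± 0.58 in DIO-VSG (9.80 to 11.25, median 10.43), a difference of 1.01 ± 0.37 from DIO-HFD (2.01-fold higher, unadjusted p = 0.013, adjusted p = 0.86). Of the DIO-HFD arrays, 3 lay within the DIO-VSG range and 3 below it. Lag3 was 5.84 ± 0.80 (4.77 to 7.17, median 5.78), a difference of 1.09 ± 0.45 (2.13-fold, unadjusted p = 0.023, adjusted p = 0.88). Pdcd1 was 6.58 ± 1.07 (5.24 to 8.01, median 6.68), with a difference of 1.31 ± 0.60 (2.47-fold, unadjusted p = 0.041, adjusted p = 0.88), and Tigit was 7.03 ± 0.34 (6.64 to 7.60, median 6.97), with a difference of 0.61 ± 0.27 (1.52-fold, unadjusted p = 0.034, adjusted p = 0.88). DIO-VSG replicate 5 had the highest Pdcd1, Lag3 and Tox signals of its group and the highest Cd3e signal of all 23 arrays, at 11.66.

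Tox was 6.94 ± 1.10 in DIO-VSG, with arrays from 5.26 to 8.10 and a median of 7.23, a difference of 0.93 ± 0.45 (1.91-fold, unadjusted p = 0.050, adjusted p = 0.88). Its DIO-VSG arrays spanned nearly the whole range of the gene, from below every DIO-HFD array in replicate 6 to within the CON-LFD range in replicates 2, 4 and 5. Entpd1 (12.23 ± 0.60, difference 0.13 ± 0.32), Cd160 (4.49 ± 0.23, difference 0.06 ± 0.37) and Btla (5.17 ± 0.61, difference -0.34 ± 0.37) had differences no larger than their standard errors. Cd3e was 9.03 ± 1.36 (7.91 to 11.66, median 8.52), a difference of 1.55 ± 0.80 (2.92-fold, unadjusted p = 0.065, adjusted p = 0.88). Of the 11 T cell core genes 9 were higher, 4 at an unadjusted p below 0.05 (median 0.83). Of 10 macrophage genes 8 were higher (median 0.30), with 1 higher and 1 lower at that level. The lower one was Mrc1, at -1.24 ± 0.46 (unadjusted p = 0.013 in limma). The higher one was Fcgr1, at 0.78 ± 0.33 (unadjusted p = 0.028). The macrophage markers Adgre1 and Csf1r differed by 0.30 ± 0.33 and 0.29 ± 0.33. Of 8 natural killer cell genes all 8 were higher, 1 at that level (median 0.67). The defining natural killer cell markers Ncr1 and Klrb1c differed by 0.02 ± 0.44 and 0.59 ± 0.49. The part of these cell types in these values was not tested.

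The comparison of DIO-LFD with DIO-HFD addresses weight loss after a move to low-fat food without gastrectomy, again against the same DIO-HFD arrays. Weight loss and the fat content of the food cannot be told apart in it. Of the 8 genes, 7 had higher means in DIO-LFD (median 0.81 beside -0.03 over all genes), 3 of 8 with an unadjusted p below 0.05, against 2.40% of all genes in that direction. None passed after adjustment (adjusted p from 0.67 to 0.99), and 0% of all genes did in limma, with 1204 genes at an unadjusted p below 0.05. No gene of the 8 separated the groups, against 0.0923% of all genes in the higher direction. The 3 genes became 5 without DIO-LFD replicate 1, the array whose source name gives the obese group, and 1 without DIO-LFD replicate 3, 4 or 5. The share of all genes is not given for these fits, so the changed counts do not show a change beyond that of other genes.

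Tigit was 7.04, 7.45, 8.33, 7.29 and 6.72 in DIO-LFD replicates 1 to 5, and 3 of these lay above every DIO-HFD array. The difference was 0.94 ± 0.28 (1.92-fold higher, unadjusted p = 0.0029, adjusted p = 0.67). Lag3 was 3.69, 5.73, 6.70, 6.55 and 6.85, a difference of 1.15 ± 0.47 (2.22-fold, unadjusted p = 0.022, adjusted p = 0.74). Replicate 1 had the lowest Lag3 signal of all 23 arrays and 3 of the others lay above every DIO-HFD array.

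Tox was 5.71, 5.95, 7.53, 7.83 and 8.21, a difference of 1.04 ± 0.47 (2.05-fold, unadjusted p = 0.039, adjusted p = 0.79). Replicates 1 and 2 were in the DIO-HFD range and the other 3 in the CON-LFD range. Pdcd1 was 3.87, 6.11, 7.80, 6.53 and 7.71, a difference of 1.13 ± 0.63 (2.19-fold, unadjusted p = 0.087, adjusted p = 0.83). Without replicate 1, which again was the lowest of all 23 arrays, the Pdcd1 difference was 1.76, that of Lag3 1.71 and that of Tox 1.37, with adjusted p of 0.40, 0.19 and 0.43.

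Havcr2 was 9.41, 9.43, 10.81, 9.74 and 11.32 in DIO-LFD, a difference of 0.68 ± 0.39 (1.60-fold, unadjusted p = 0.095, adjusted p = 0.83). The other 3 genes, Entpd1 (12.19 ± 0.55, difference 0.09 ± 0.34), Btla (5.58 ± 0.60, difference 0.08 ± 0.39) and Cd160 (4.23 ± 0.43, difference -0.20 ± 0.39), had differences smaller than their standard errors. Cd3e was 6.29, 6.80, 9.91, 9.0 and 11.06, so that replicates 1 and 2 were low for Cd3e as for Tox and Havcr2, and its difference of 1.13 ± 0.84 had an unadjusted p of 0.19. Of the 11 T cell core genes 10 were higher in DIO-LFD, 1 at an unadjusted p below 0.05 (median 0.65), of 8 natural killer cell genes 6 were higher, 2 at that level (median 0.72), and of 10 macrophage genes 8 were higher, 1 at that level (median 0.37). The defining natural killer cell markers Ncr1 and Klrb1c went the other way, with differences of -0.40 ± 0.46 and -0.20 ± 0.51. The part of these cell types in these receptor values was not tested. The muscle genes were higher in DIO-LFD for 25 of 25 (median 2.78, 1 at an unadjusted p below 0.05), and the median of the 8 receptor and factor genes was 0.56 without the 8 muscle-rich arrays, which left 2 DIO-LFD arrays.

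**Figure D2:**
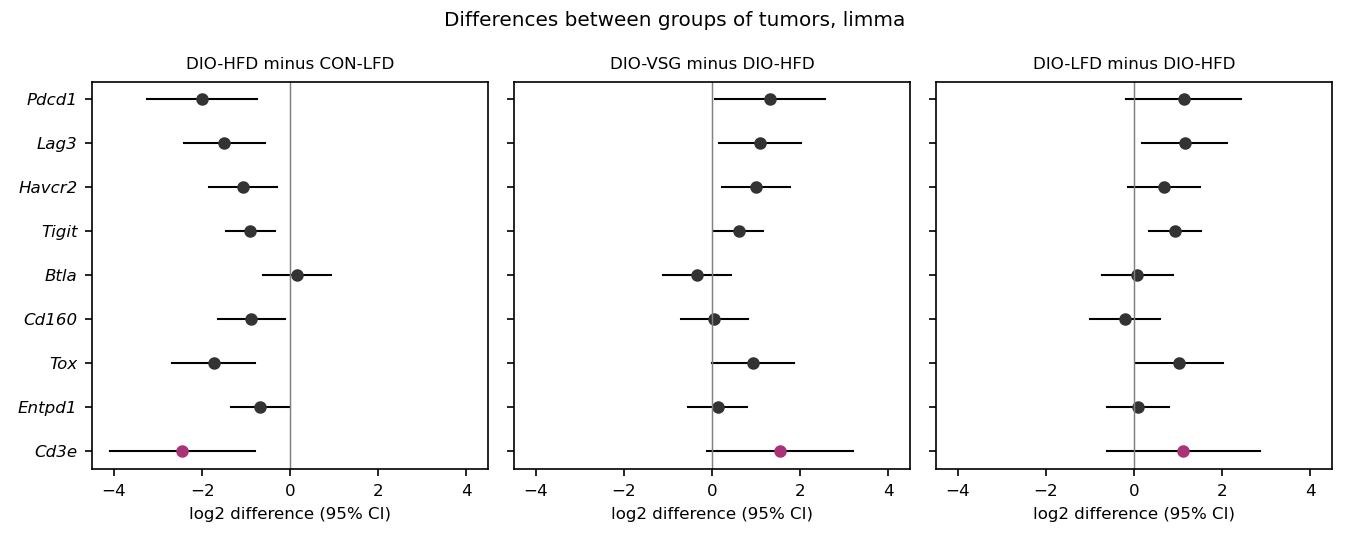
Log2 differences between groups with 95% confidence intervals from limma for the 8 genes and Cd3e, in the comparisons with shared DIO-HFD arrays. Intervals of 7 of the 8 genes and of Cd3e lie below 0 for DIO-HFD minus CON-LFD, those of 4 genes above 0 for DIO-VSG minus DIO-HFD and those of 3 genes above 0 for DIO-LFD minus DIO-HFD, while no adjusted p passed 0.05.

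The weight loss groups were also set against CON-LFD and against each other. The median of the 8 genes was -0.48 for DIO-VSG minus CON-LFD and -0.49 for DIO-LFD minus CON-LFD, and -0.01 for DIO-VSG minus DIO-LFD, and in each of these comparisons 0% of all genes passed after adjustment, with 1302, 1060 and 662 genes at an unadjusted p below 0.05 in limma. Cd160 had the smallest unadjusted p of the 8 in both comparisons with CON-LFD, with differences of -0.83 ± 0.37 for DIO-VSG (unadjusted p = 0.034, adjusted p = 0.71 in limma) and -1.09 ± 0.39 for DIO-LFD (unadjusted p = 0.010, adjusted p = 0.87). In DIO-VSG its arrays were tightly grouped, from 4.13 to 4.75, and all of them lay below the low-signal limit.

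The order of group means differed between genes. For Pdcd1, Havcr2, Entpd1 and Cd3e it was CON-LFD, DIO-VSG, DIO-LFD and DIO-HFD from high to low, and for Lag3 and Tox the weight loss groups changed places in it. Tigit was highest in DIO-LFD (7.37 ± 0.61) and then CON-LFD, with DIO-HFD lowest. Cd160 was highest in CON-LFD with the other 3 groups between 4.23 and 4.49, and Btla ran in yet another order within a span of 5.17 to 5.58. Between neighbors in these orders, an unadjusted p below 0.05 was found for Lag3 and Tigit (DIO-VSG against DIO-HFD) and for Cd160 (CON-LFD against DIO-VSG), and none passed after adjustment.

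Within groups, that is after the group means were removed in the fit, the signal of 5 of the 8 genes rose with Cd3e at an adjusted p below 0.05 in limma, as it did for 3.0% of all 19504 other genes. The slope, in log2 units per log2 unit of Cd3e, was 0.65 ± 0.08 for Pdcd1 (adjusted p = 4.3e-05), 0.43 ± 0.08 for Lag3 (adjusted p = 0.0015), 0.43 ± 0.08 for Tox (adjusted p = 0.0021), 0.35 ± 0.07 for Havcr2 (adjusted p = 0.0025) and 0.27 ± 0.06 for Entpd1 (adjusted p = 0.017). The slope of Cd160 was 0.20 ± 0.09 (adjusted p = 0.22), and those of Tigit, 0.06 ± 0.07 (95% confidence interval -0.08 to 0.21), and Btla, 0.01 ± 0.10 (-0.20 to 0.22), had adjusted p of 0.72 and 0.98. Over the 23 arrays Cd3e spanned 6.58 log2 units, Pdcd1 4.94 and Entpd1 2.20, the narrowest of the 8 genes.

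Over all 23 arrays the correlation with Cd3e was r = 0.91 and rho = 0.92 for Pdcd1, 0.84 and 0.84 for Tox, 0.84 and 0.85 for Lag3 and 0.83 and 0.76 for Havcr2, with a permutation p of 1e-05, the smallest that the 100000 permutations can give, except for the rho of Havcr2 (7e-05). Entpd1 had r = 0.73 and rho = 0.70 (permutation p = 9e-05 and 0.00029). Cd160 had r = 0.54 and rho = 0.40 (permutation p = 0.0073 and 0.057), Tigit 0.42 and 0.30 (0.045 and 0.16) and Btla -0.05 and -0.10 (0.81 and 0.65). The p-values of these 8 relations were not adjusted, and all share the array's RNA and its scaling. The permutations moved arrays across the groups, so these p-values also take in differences between group means. Without DIO-HFD replicate 3 and DIO-VSG replicate 5, the arrays farthest from the median of Cd3e, r was 0.89 for Pdcd1, 0.83 for Tox, 0.79 for Lag3, 0.78 for Havcr2, 0.70 for Entpd1, 0.45 for Cd160 and 0.30 for Tigit. Only 0.138% of all genes had a higher r with Cd3e than Pdcd1. Within groups r was 0.87 for Pdcd1, 0.78 for Lag3, 0.77 for Havcr2, 0.77 for Tox and 0.69 for Entpd1. It was 0.45 for Cd160, 0.19 for Tigit and 0.02 for Btla.

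**Figure D3:**
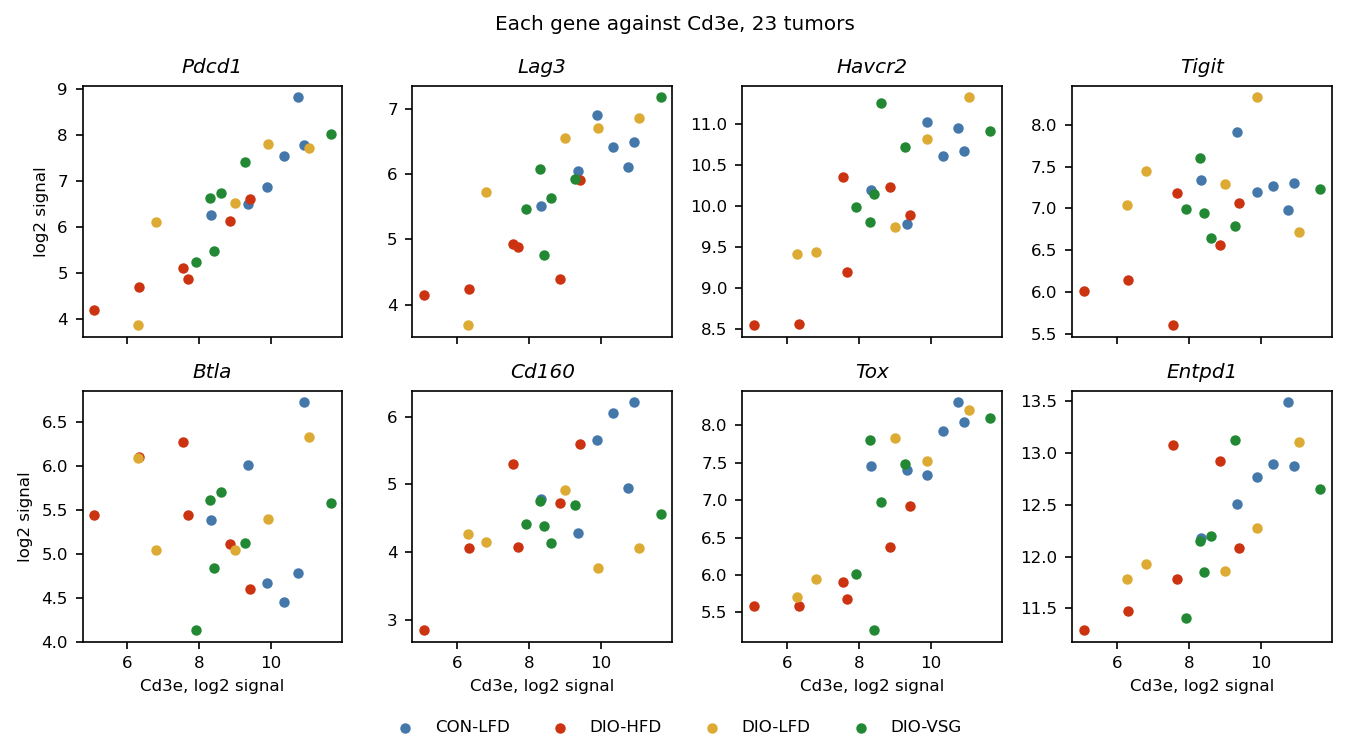
Log2 signal of each of the 8 genes against that of Cd3e in the 23 tumors, colored by group. Points of Pdcd1 (r = 0.91), Tox, Lag3 and Havcr2 rise along Cd3e in all groups, and those of Btla (r = -0.05) are spread without a trend.

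Since the mean of Cd3e was itself lower in DIO-HFD, each gene was also expressed relative to Cd3e of the same array, as a difference of log2 signals. For DIO-HFD minus CON-LFD all 8 genes were then higher in DIO-HFD, with a median of 1.46. This has to be read beside the median of 2.48 over all 19504 genes, 94.2% of which were called higher by limma, since the subtraction adds the Cd3e difference to every gene. Pdcd1 relative to Cd3e was -2.65 ± 0.51 in CON-LFD and -2.21 ± 0.80 in DIO-HFD, a difference of 0.44, and Tox relative to Cd3e was -2.19 ± 0.71 and -1.48 ± 1.17, a difference of 0.71. These were the smallest relative differences of the 8, and the adjusted p was 0.63 and 0.44.

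Btla relative to Cd3e had the largest difference, 2.61 (from -4.60 ± 1.31 to -1.99 ± 2.02, adjusted p = 0.013), and was the only one of the 8 that limma called. Its own signal differed by 0.16, so this value is nearly all the Cd3e difference and lies near the all-gene median of 2.48. Without DIO-HFD replicate 3, the array with the lowest Cd3e, the relative difference of Btla was 2.14 with an adjusted p of 0.058. The relative differences of the others were 0.96 for Lag3, 1.38 for Havcr2, 1.54 for Tigit, 1.57 for Cd160 and 1.77 for Entpd1 (adjusted p from 0.056 to 0.30). The moderated standard error was the same for all genes after the subtraction, 0.92, as limma estimated a common spread. With each gene's own spread the 95% confidence interval included 0 for Pdcd1 (-0.49 to 1.37), Lag3 (-0.25 to 2.17), Tox (-0.51 to 1.94), Tigit (-0.26 to 3.35) and Cd160 (-0.06 to 3.19). It lay above 0 for Havcr2 (0.08 to 2.67), Btla (0.62 to 4.61) and Entpd1 (0.34 to 3.20). Exact permutation tests gave p = 0.31 for Pdcd1, 0.13 for Lag3, 0.22 for Tox, 0.067 for Tigit, 0.035 for Havcr2, 0.028 for Btla, 0.013 for Cd160 and 0.017 for Entpd1, unadjusted among 48 such tests, with 0.0022 as the smallest p that 6 against 6 arrays allow. These intervals and tests contain the Cd3e difference added to every gene, and no share of all genes was taken for them. They therefore do not show a rise beyond that of other genes. Havcr2, Cd160 and Entpd1 lay below the all-gene median of 2.48.

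With Cd3e as a covariate in place of the subtraction, so that each gene kept its own slope, the median of the 8 genes for DIO-HFD minus CON-LFD was -0.40, beside 0.03 over all genes. Tigit was at -0.76 ± 0.32 (unadjusted p = 0.028, adjusted p = 0.58), Tox at -0.68 ± 0.36 (adjusted p = 0.64), Lag3 at -0.43 ± 0.35, Pdcd1 at -0.41 ± 0.37, Cd160 at -0.39 ± 0.40, Havcr2 at -0.21 ± 0.30, Entpd1 at -0.01 ± 0.29 and Btla at 0.18 ± 0.46. No adjusted p was below 0.58. The median thus had the opposite sign to that after subtraction, and 7 of the 8 genes changed sign while Btla stayed above 0. With the mean of the T cell core list subtracted in place of Cd3e, Pdcd1 (-0.45) and Tox (-0.18) were also below 0.

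For the comparisons with weight loss the relative differences had intervals that included 0 in limma, apart from Btla in DIO-VSG (-1.88, 95% confidence interval -3.68 to -0.08, adjusted p = 0.17). The medians were -0.78 for DIO-VSG minus DIO-HFD and -0.32 for DIO-LFD minus DIO-HFD, beside -1.56 and -1.15 over all genes. Pdcd1 relative to Cd3e was -2.45 ± 0.77 in DIO-VSG and -2.21 ± 0.97 in DIO-LFD, and the means of the 4 groups differed by less than the SD of any of them.

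**Figure D4:**
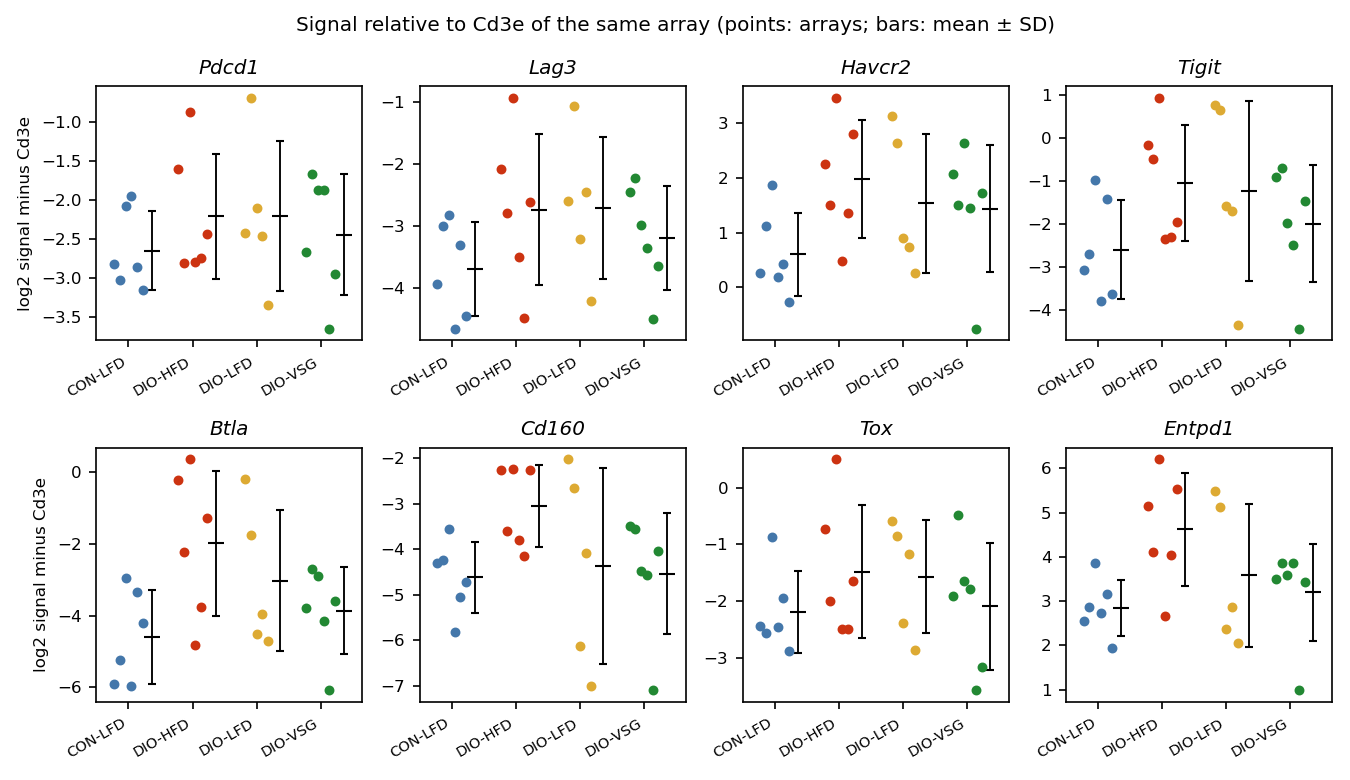
Log2 signal of each gene minus that of Cd3e on the same array, by group (points, arrays; bars, mean ± SD). Group means of Pdcd1 lie between -2.65 and -2.21, and Btla shows the widest separation, from -4.60 in CON-LFD to -1.99 in DIO-HFD, with overlapping arrays. The subtraction adds the Cd3e difference to every gene, also to Btla, whose own signal differed by 0.16 between these groups.

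The 8 genes fell into unlike patterns when set against each other and against marker lists over the 23 arrays. Pdcd1, Lag3 and Tox correlated with each other at r = 0.85 to 0.90, and Havcr2 with Entpd1 at 0.76, and within groups at 0.81. Btla had r between -0.18 and 0.12 with the other 7 genes, and Tigit between -0.18 and 0.55. These correlations describe the 23 arrays, which share their groups, and were not tested.

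Within groups, Pdcd1 and Lag3 correlated most closely, among the 12 lists plotted, with the T cell core list (r = 0.90 and 0.87), and Lag3 nearly as closely with the interferon gamma response (0.85). Havcr2 and Entpd1 correlated most closely with the natural killer cell list (0.85 and 0.89), and Entpd1 also with the macrophage list (0.77). Cd160 had its highest value with the dendritic cell list (0.58), Tigit its largest in size with the neutrophil list (-0.56), and Btla its largest with the endothelial list (-0.40). With the skeletal muscle list all 8 genes lay between -0.26 and 0.29. Several lists rise and fall together across tumors, so a high value with one list does not assign a gene to that cell type.

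**Figure D5:**
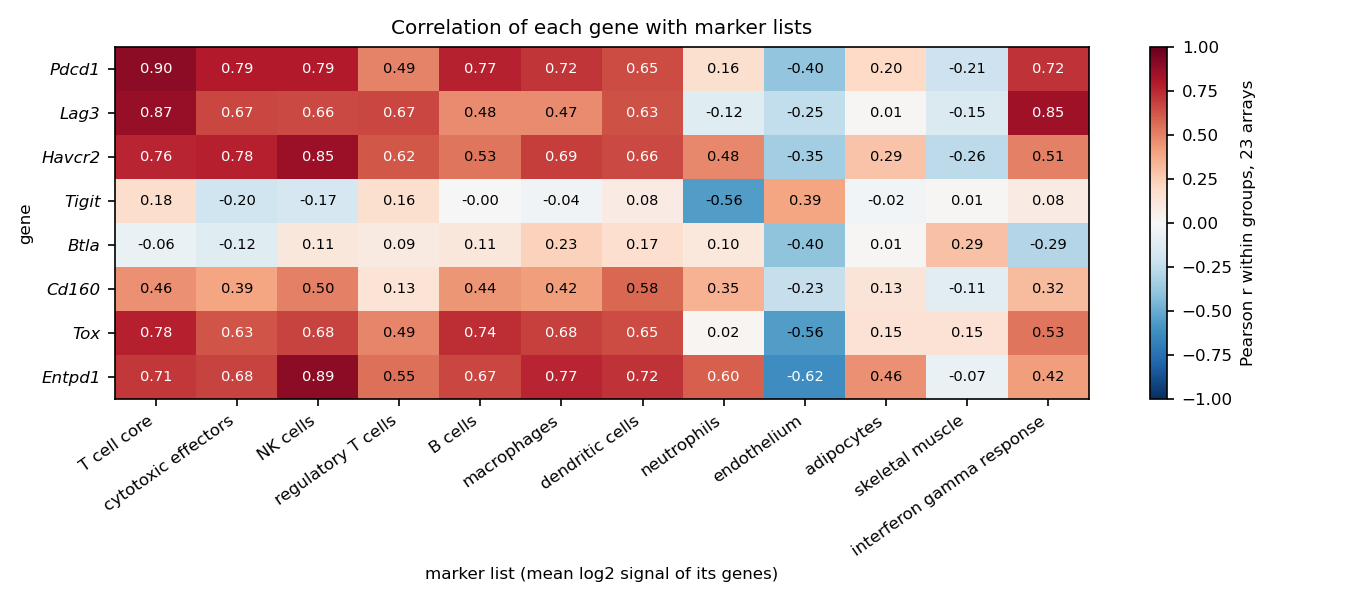
Pearson correlation within groups between each of the 8 genes (rows) and the mean log2 signal of 12 marker lists (columns) over 23 arrays, with group means removed. Pdcd1 is highest with the T cell core list (0.90) and Entpd1 with the natural killer cell list (0.89). Values of Tigit run from -0.56 to 0.39 and those of Btla from -0.40 to 0.29.

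The genes most like each of the 8 over all 23 arrays, by Pearson r among all named genes, differed accordingly. For Pdcd1 they were Aif1 (0.94), Fcer1g (0.94) and Nkg7 (0.93), genes of myeloid cells and of cytotoxic granules. For Lag3 they were H2-DMa, Psmb8 and Cd8b1 (0.88 to 0.89), which act in MHC class II loading, in the immunoproteasome and as a CD8 chain. For Havcr2 they were Apobec1, Tifab and Gm2a (0.90), for Entpd1 Cd300a, Marchf1 and Otulinl (0.88 to 0.90), and for Tox Pld4, Mapkapk3 and Pdcd1 itself (0.90 each).

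The nearest genes of the remaining 3 had lower values. For Tigit they were Srm, Psmd4 and B4galt5 (0.76), which encode an enzyme of spermidine synthesis, a proteasome subunit and a galactosyltransferase. For Btla they were Samd7, Ptcd2 and Prkag3 (0.67 to 0.77), and for Cd160 Arhgap26, Trap1a and Tnfrsf14 (0.74 to 0.77), the last being the gene of its ligand HVEM.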

How the data were processed

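Total RNA of 23 tumors was measured on Mouse Clariom S HT arrays (Affymetrix). The deposited values are log2 signals that the authors obtained from the Transcriptome Analysis Console, with robust multichip averaging after a signal space transformation, and they were used without further scaling. The platform annotation gave a single symbol for 19572 of 22206 probe sets. Older symbols were replaced by way of Entrez identifiers in a GRCm38.p6 gene table, and a gene with several probe sets was read from the brightest on average, for 19505 genes in all. Precision is limited by the number of arrays. Array medians ran from 6.13 to 6.5.

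Each gene was tested with limma 3.58.1 in R 4.3.3 (a mean per group over all 23 arrays, then eBayes, two-sided), and p-values were adjusted over all genes by the Benjamini-Hochberg procedure, with a threshold of 0.05. The labels give no scan date or batch. Replicates were separate tumors. Relative values subtracted the Cd3e signal of the same array from all other genes. After this step limma gave infinite prior degrees of freedom, so each gene's own spread (chosen after seeing the data) and exact permutation tests were added. Slopes on Cd3e were fitted in limma with the group means. Correlation p-values came from 100000 permutations, two-sided.

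The members and the 20 gene lists (209 of 227 genes measured, the others not analysed here) were chosen with earlier results of these data known. Named are all 8 genes and Cd3e, up to 4 measured genes of a list with the smallest p in DIO-HFD minus CON-LFD, defining markers and, for each of the 8, the 3 most correlated named genes, leaving out predicted models and receptor segments. The fit was also run on simulated arrays with values drawn independently for each gene. Genes of the real arrays rise and fall together, so no result here rests on that run. Figures were drawn with matplotlib 3.10.9 in Python 3.11.15.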

Additional observations from a re-analysis of the deposited data

Results flagged for a closer look

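In 68 sets of values, each a gene in a group with or without Cd3e subtracted, 4 held an array set far apart from the others of its group, which chance gives in about 1 of 20 groups, and all 4 were DIO-VSG replicate 5. Its Cd3e signal was 11.66, with the next highest DIO-VSG array at 9.28. Relative to Cd3e it was at -0.75 for Havcr2 (next 1.44), at -7.10 for Cd160 (next -4.58) and at 0.99 for Entpd1 (next 3.43). The relative values contain that Cd3e signal, so the 4 are not independent. Its own Havcr2, Cd160 and Entpd1 signals, 10.91, 4.56 and 12.65, lay within the range of the other DIO-VSG arrays.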

How the results depend on the processing

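Over 35 alternatives, the median of the 8 genes kept its direction for DIO-HFD minus CON-LFD (-1.19 to -0.86), DIO-VSG minus DIO-HFD (0.48 to 0.93) and DIO-LFD minus DIO-HFD (0.56 to 0.94). None of the 8 passed 0.05 for DIO-HFD minus CON-LFD except 1 (Tox) with only the 2 groups compared and 3 (Pdcd1, Lag3 and Tox) with the groups of the source names. The 1 gene called overall became 196 with the source names, 66 without the 2 arrays whose labels differ, 17 with trend and robust variance, 13 with array weights and 5 with only the groups compared, and 0 to 60 with single arrays left out (60 without DIO-LFD replicate 1). Numbers did not pair the arrays (mean r of 0.02 between arrays of the same number). With the replicate block the median was -0.99, and 12 genes were called.

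Small differences changed sign. Single arrays left out gave -0.018 to 0.438 for Btla in DIO-HFD minus CON-LFD, -0.26 to 0.29 for Cd160 and -0.053 to 0.322 for Entpd1 in DIO-VSG minus DIO-HFD, and -0.11 to 0.24 for Btla, -0.516 to 0.034 for Cd160 and -0.14 to 0.28 for Entpd1 in DIO-LFD minus DIO-HFD. Without the muscle-rich arrays Cd160 was -0.14 and Entpd1 -0.20 in DIO-VSG minus DIO-HFD, and Btla -0.16 and Entpd1 -0.13 in DIO-LFD minus DIO-HFD. There Btla was also -0.017 with array weights, -0.084 with the muscle list as covariate, -0.043 without the 2 arrays whose labels differ and -0.39 with the source names.

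Relative to Cd3e, the DIO-HFD minus CON-LFD median of 1.46 was 0.15 with Ptprc as the reference (Pdcd1 -0.87, Lag3 -0.35, Tox -0.60), and the mean of the T cell core list turned Pdcd1 to -0.45 and Tox to -0.18. With Cd3e as covariate the median was -0.40, with Pdcd1 at -0.41, Lag3 at -0.43, Havcr2 at -0.21, Tigit at -0.76, Cd160 at -0.39, Tox at -0.68 and Entpd1 at -0.013. A covariate fits a slope where the subtraction sets it to 1, and the other causes were not tested. The count of relative calls for DIO-HFD minus CON-LFD, 1, was 2 with only the 2 groups, the muscle list as covariate or the replicate block. It was also 2 without the 2 arrays whose labels differ and with the Cd3 chain mean as reference. It was 4 with the source names, 3 with gene-wise variance, 0 with Cd3e as covariate and 0 to 2 with single arrays left out. Of all 19504 genes, 94.2% were called higher in the reported fit after the subtraction, and 0 were called with Cd3e as covariate. For the other settings no share of all genes is given. These counts therefore do not show a gain or loss beyond that of other genes. With the covariate the relative median also changed sign for DIO-VSG minus DIO-HFD (0.28), DIO-LFD minus DIO-HFD (0.34) and DIO-VSG minus CON-LFD (-0.21), but not for DIO-LFD minus CON-LFD (0.03) or DIO-VSG minus DIO-LFD (-0.17). Signals near background limit Cd160, Lag3 and Btla.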
